A study of Mus musculus with 8 samples.

Results

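The cytochrome P450 genes of the mouse stomach corpus were described in mutant and control animals. The members were the protein-coding genes of the count table whose symbol is Cyp followed by a family number, subfamily letters and a gene number. This gave 93 genes of the 54532 in the table. Of these, 37 had a summed count of at least 100 reads over the 8 libraries and are reported on. The other 56 count as not measured, 24 of them without a read. The corpus, the region of the stomach that secretes acid and pepsinogen, was taken from untreated mice of mixed strain background (C57BL/6 and CD1). The 4 mutants were Six2-Cre+/- PKAcaR fl/wt and the 4 controls Six2-Cre+/- PKAcaR wt/wt. Both groups thus carried a Cre transgene driven by the Six2 promoter, and they differed in 1 floxed copy of an allele of the protein kinase A catalytic subunit alpha. That allele is known to give, once Cre has acted on it, a kinase that is active without cyclic AMP. The labels give neither age nor sex, and each library was 1 animal per the series' design text.

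P450 enzymes are heme proteins that insert an oxygen atom into fatty acids, sterols, steroid hormones and foreign chemicals. Those of the endoplasmic reticulum take electrons from the reductase encoded by Por, and those of mitochondria from ferredoxin reductase and ferredoxin. Families 1 to 3 are best known for handling foreign chemicals and, in part, for making epoxides of arachidonic acid. Family 4 hydroxylates fatty acids at their far end, and most families with higher numbers serve bile acid, steroid and vitamin D synthesis. The liver is the main site of many of these enzymes, whereas a smaller set is known from the lining of the gut.

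Library totals lay between 18184281 and 23814720 reads in mutants and between 18942308 and 22814152 reads in controls. Mutant 2 stood apart, with correlations of log2 CPM (reads scaled to library size) of 0.83 to 0.875 with the other mutants, which among themselves reached at least 0.972. Mutant 3 and control 3 held transcripts of squamous forestomach, with all 8 markers detected at sums of 715 and 270 CPM, against at most 3.47 CPM in the other 6 libraries. Values without these libraries are given beside the results that they moved most. The tissue markers were those of corpus, but weak in mutant 2. All 8 parietal cell genes in the table had reads, at sums of 376 to 3893 CPM in mutants and 18101 to 24425 CPM in controls. Atp4a was at 4.42 CPM in mutant 2, 444 to 1446 CPM in the other mutants and 9783 to 13086 CPM in controls. Atp4b was at 0.900 CPM in mutant 2, 181 to 559 CPM in the other mutants and 3705 to 4384 CPM in controls. Gif stands in this list and in that of chief cells. It gave 1096, 147, 1409 and 1349 CPM of the sum in mutants 1 to 4, against 3159, 2800, 5168 and 3798 CPM in controls 1 to 4. The 5 chief cell markers summed to 996 to 41618 CPM in mutants and 298410.0 to 533949 CPM in controls. In such bulk tissue, fewer cells of a type and less RNA per cell cannot be told apart. All 10 hepatocyte markers had reads, but Alb, the defining gene, was at 0.0818 to 3.79 CPM in mutants and 1.00 to 2.04 CPM in controls. The list summed to 5.07 to 380.2 CPM in mutants and 1639 to 2600 CPM in controls, most of it Apoa1 in every library but mutant 2.

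Among the 35 members that passed the filter on low counts, 9 differed between mutant and control corpus, or 25.7%, against 20.2% of all 15862 genes tested. The members also had at least 100 summed reads, a minimum not set for all genes, so the shares compared are of unlike sets. The test was edgeR's quasi-likelihood test, and a gene was called at an adjusted p under 0.05 (Benjamini-Hochberg, over all genes). Cyp2d34, Cyp2d26, Cyp1b1, Cyp2c23 and Cyp4f40 were higher, 5 genes of 35, where 9.39% of all genes were called higher. Cyp4v3, Cyp2u1, Cyp2j9 and Cyp4a32 were lower, 4 genes of 35, where 10.8% of all genes were called lower. In this fit the share called was thus near that of all genes. With DESeq2 the share was 44.1% of 34 members, against 24.8% of all 19903 genes. Those 34 included Cyp21a1, called higher, and left out Cyp1b1, Cyp4b1 and Cyp2f2, for which DESeq2 gave no adjusted p. With limma-voom the share was 57.1% of 35 members, against 35.9% of all genes. In the edgeR fit the members had a median log2 fold change, mutant over control, of -0.21, against 0.07 over all genes. All 4 mutants lay above all 4 controls in 5 tested members, against 14.2% of all genes, and below them in 9, against 16.1% of all genes. Cyp2f2 and Cyp21a1 did not pass the filter of the edgeR fit. Of the 35 that passed, 23 reached the filter's minimum in all 8 libraries, and of these 3 were called higher and 3 lower. The share called among all genes that reached it in all 8 libraries was not computed, so this count has no background. Cyp2d34, Cyp4f40 and Cyp4a32 passed through the group where they are high alone, no library of the other group reaching the minimum. The 25.7% includes their calls, which lend that share no support. The share without them was not computed.

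Without mutant 2, 19 of the 35 members were called, or 54.3%, against 33.5% of all genes. Of these 7 were higher, against 15.2% of all genes, and 12 lower, against 18.3% of all genes. Of the 9 genes called with all libraries, 8 were called again and Cyp1b1 was not, and 11 further members were called. Mutant 2 held the lowest value of the 4 mutants for 19 of the 37 measured members and the highest for 12. With mutant 3 and control 3 both left out, 3 members were higher and 3 lower, or 17.1% called. In that fit 8.81% of all genes were called, 3.67% higher and 5.14% lower. With the plain column totals in place of the scaled library sizes, the median over all genes moved to 0.765. Under that scaling 8 members were higher and 3 lower, or 31.4% called, where 64.1% of all genes were called, 59.5% higher and 4.55% lower.

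**Figure D1:**
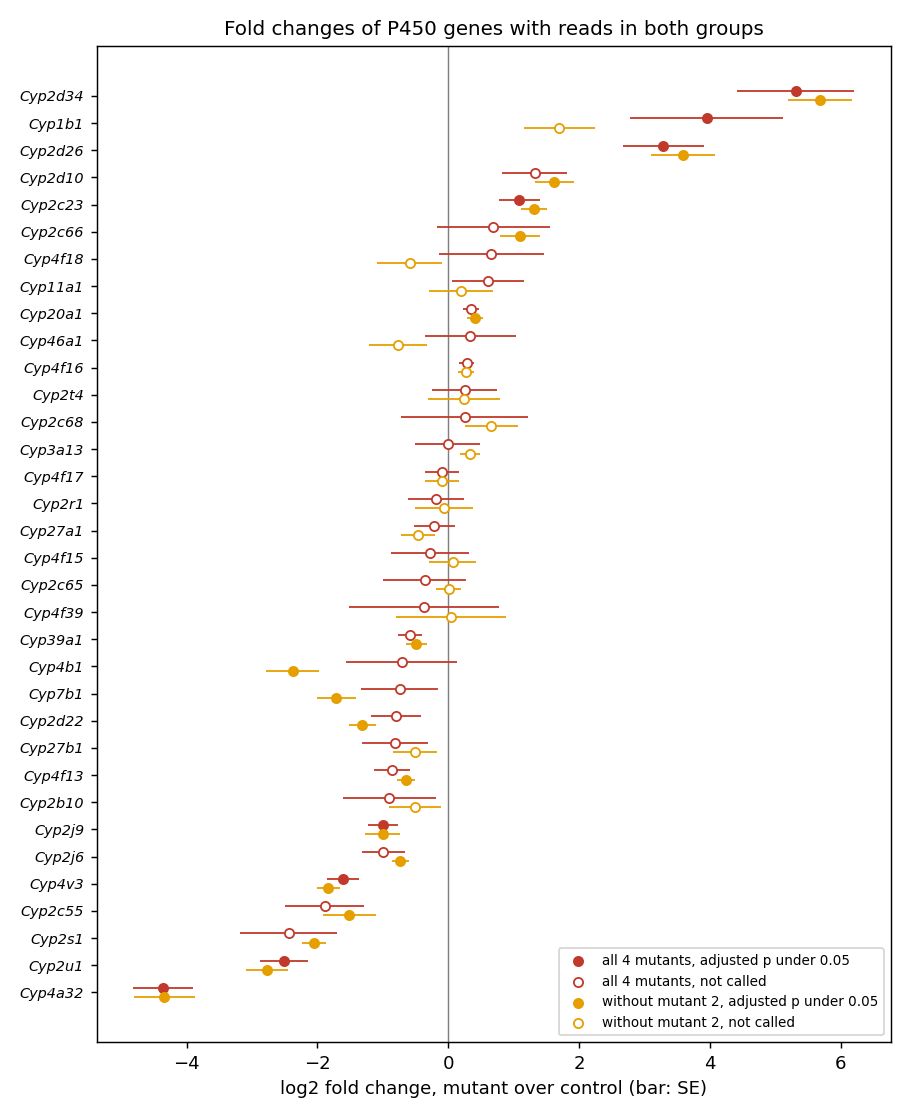
Log2 fold changes, mutant over control, with their SE as bars, of the 34 tested P450 genes that had reads in both groups, from all 8 libraries (red) and without mutant 2 (orange); filled points passed an adjusted p under 0.05. Cyp2d34 stands at the top at 5.31 and Cyp4a32 at the bottom at -4.36, and Cyp1b1 dropped to 1.70 and Cyp4b1 to -2.38 when mutant 2 was left out.

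Levels of different genes were compared on the deposited FPKM scale, which is per length. Its implied library sizes were 1.004 to 1.013 times the scaled library sizes of the test. The scaling factors were 1.24 to 1.32 in mutants and 0.688 to 0.839 in controls. Sums compared between the groups depend on these factors, whereas shares within a library do not. Sums on plain column totals were not computed. The 37 measured members summed to 316, 215, 283 and 255 FPKM in mutants 1 to 4, against 392.5, 434, 344 and 412.5 FPKM in controls 1 to 4. Cyp2s1, a family 2 enzyme of epithelia outside the liver, supplied 10.7%, 0.956%, 16.9% and 12.4% of that sum in mutants 1 to 4, against 39.6%, 38.6%, 37.1% and 41.4% in controls 1 to 4. Every control thus had Cyp2s1 as its most abundant P450 transcript. In mutants 1, 3 and 4 that place went to Cyp2c65, at 37.0%, 31.0% and 34.3% of the sum, and in mutant 2 to Cyp1b1, at 52.2%. Mean levels of Cyp2c65 were 75.0 ± 46.6 FPKM in mutants and 96.0 ± 23.4 FPKM in controls (SD, n = 4 each). Cyp2j6 had 19.7 ± 8.20 FPKM in mutants and 39.2 ± 4.68 FPKM in controls, and Cyp3a13 had 17.8 ± 9.60 FPKM in mutants and 17.9 ± 3.71 FPKM in controls. Controls ordered these genes with no overlap of their ranges, Cyp2s1 above Cyp2c65, then Cyp2j6, then Cyp3a13. In mutants 1, 3 and 4 the levels of Cyp2c65 lay above those of Cyp2s1, and those of Cyp2s1 above those of Cyp2j6 and Cyp3a13, which did not differ beyond their spread.

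**Figure D2:**
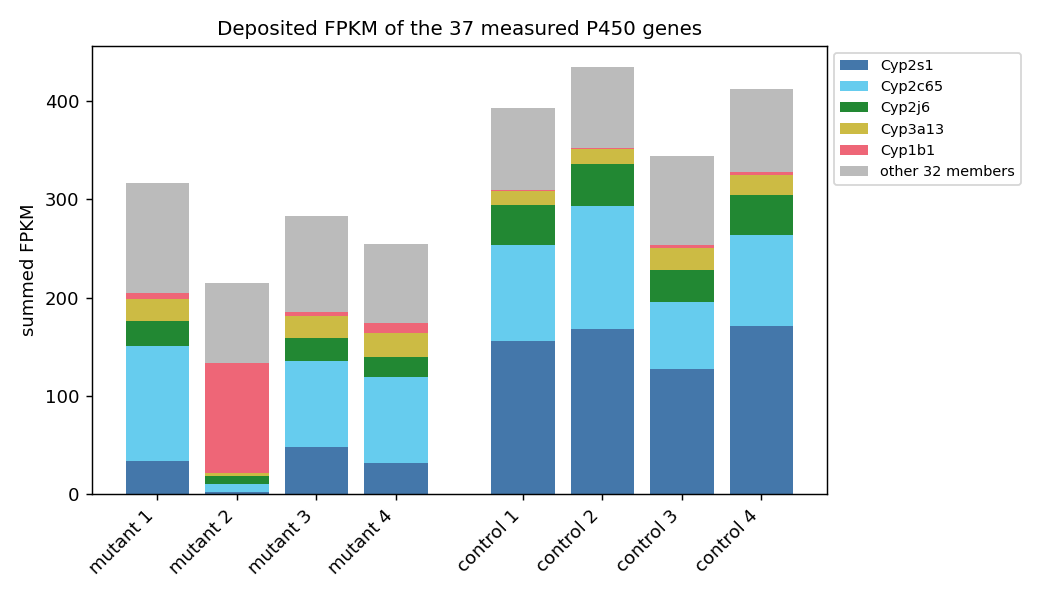
Summed deposited FPKM of the 37 measured P450 genes in each library, mutants on the left and controls on the right, with the 5 genes of highest mean level in colour and the other 32 in grey. The Cyp2s1 segment makes up 37.1% to 41.4% of every control bar and at most 16.9% of a mutant bar, and Cyp1b1 fills 52.2% of the bar of mutant 2.

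Promoters were read from the RefSeq table (GRCm38.p6), which held 29 of the 37 measured members, each from 250 bases before to 50 after the start. The letters GCGTG, the core bound by the aryl hydrocarbon receptor, a sensor of foreign chemicals, were searched for on both strands. They stood in the promoters of 10 of the 29 members, against 32.4% of all 32851 promoters of that length. The full cyclic AMP response element TGACGTCA, bound by factors that protein kinase A is known to activate, stood in 0 of the 29, against 1.79% of all promoters. Its part TGACG stood in 3, against 20.8%, and the letters TATAAA in 6, against 13.6%. Shown are the promoters of Cyp1b1, Cyp4v3 and Cyp2j9, the 3 called genes with a GCGTG match, and those of Cyp2d26 and Cyp4a32, the called genes with a TATAAA match. Capitals mark the matches, where CACGC and TTTATA are the same motifs read on the other strand, and in Cyp2j9 the capitals run on into an overlapping TGACG. The windows are chr17:79715012-79715311, minus strand, for Cyp1b1, chr8:45333114-45333413, minus strand, for Cyp4v3, chr4:96591436-96591735, minus strand, for Cyp2j9, chr15:82794196-82794495, minus strand, for Cyp2d26, and chr4:115600688-115600987, plus strand, for Cyp4a32.
Cyp1b1: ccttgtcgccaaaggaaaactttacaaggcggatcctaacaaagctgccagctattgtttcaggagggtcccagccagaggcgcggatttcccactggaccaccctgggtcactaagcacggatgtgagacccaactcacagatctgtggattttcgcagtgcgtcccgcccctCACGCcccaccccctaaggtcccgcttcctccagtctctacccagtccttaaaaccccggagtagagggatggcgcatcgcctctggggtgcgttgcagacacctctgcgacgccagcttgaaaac
Cyp4v3: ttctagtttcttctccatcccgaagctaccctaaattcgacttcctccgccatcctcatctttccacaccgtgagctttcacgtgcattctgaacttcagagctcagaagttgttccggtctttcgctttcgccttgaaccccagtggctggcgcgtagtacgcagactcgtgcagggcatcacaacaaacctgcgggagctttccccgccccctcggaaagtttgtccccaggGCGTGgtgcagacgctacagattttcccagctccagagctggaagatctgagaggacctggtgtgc
Cyp2j9: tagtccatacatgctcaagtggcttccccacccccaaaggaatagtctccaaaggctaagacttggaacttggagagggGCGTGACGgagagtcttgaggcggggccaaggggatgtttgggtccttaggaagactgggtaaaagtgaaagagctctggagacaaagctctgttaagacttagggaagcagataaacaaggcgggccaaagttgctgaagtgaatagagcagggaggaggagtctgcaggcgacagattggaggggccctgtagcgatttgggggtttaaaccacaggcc
Cyp2d26: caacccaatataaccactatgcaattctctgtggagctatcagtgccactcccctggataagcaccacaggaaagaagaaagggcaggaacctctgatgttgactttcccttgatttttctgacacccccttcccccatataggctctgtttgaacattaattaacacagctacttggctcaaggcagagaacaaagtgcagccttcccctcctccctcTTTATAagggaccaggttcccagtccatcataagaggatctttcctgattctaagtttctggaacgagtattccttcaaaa
Cyp4a32: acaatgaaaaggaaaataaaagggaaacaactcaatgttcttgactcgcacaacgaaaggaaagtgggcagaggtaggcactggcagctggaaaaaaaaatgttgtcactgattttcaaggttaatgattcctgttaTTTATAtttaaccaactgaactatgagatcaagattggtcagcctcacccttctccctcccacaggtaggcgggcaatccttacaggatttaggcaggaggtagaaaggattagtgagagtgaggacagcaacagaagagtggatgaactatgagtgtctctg
The first capital stands 76 bases before the start in Cyp1b1, 16 in Cyp4v3, 171 in Cyp2j9, 31 in Cyp2d26 and 113 in Cyp4a32. Of the 3 genes with a GCGTG match Cyp1b1 was higher and the other two were lower, and of the pair with a TATAAA match Cyp2d26 was higher and Cyp4a32 lower.

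In family 1, whose genes are classical targets of the aryl hydrocarbon receptor, Cyp1b1 was the sole measured member of 3. The enzyme oxidises polycyclic hydrocarbons and oestradiol in tissues outside the liver. Coordinates here and for the following genes are as in the count table, and those of 33 of the 37 measured members match GENCODE M21 (GRCm38). The gene Cyp1b1 is ENSMUSG00000024087, chromosome 17, 79706953 to 79715041. It was at 32.1, 579, 19.96 and 56.4 CPM in mutants 1 to 4, against 4.71, 7.31, 15.9 and 16.5 CPM in controls 1 to 4. Every mutant lay above every control, mutant 3 by little, and mutant 2 stood far above the rest. Cyp1b1 was higher in mutants (log2 fold change 3.95, SE 1.17, adjusted p = 0.0471). The call was lost without mutant 2 (log2 fold change 1.70, SE 0.54, adjusted p = 0.0535), without mutant 4 (adjusted p = 0.0637), and without any 1 control (adjusted p between 0.0949 and 0.126). It was also lost without both squamous libraries (log2 fold change 4.54, SE 1.28, adjusted p = 0.0805). DESeq2 gave Cyp1b1 no adjusted p. Beside it, the 5 macrophage markers, all detected, summed to 136, 600.2, 88.1 and 158 CPM in mutants 1 to 4, against 90.5 to 106 CPM in controls, and their part in the result was not tested. The receptor gene Ahr, chosen after its values were seen, was at 22.4 ± 2.59 CPM in mutants and 18.4 ± 3.16 CPM in controls (SD, n = 4 each) and was not called (log2 fold change 0.28, SE 0.15, adjusted p = 0.217). Cyp1a1, with 0, 0, 0 and 0 reads in mutants 1 to 4, against 5, 5, 22 and 48 reads in controls 1 to 4, fell short of the minimum.

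The Cyp2d genes are a cluster on chromosome 15 that is best known from the liver, and their human relative CYP2D6 oxidises many drugs. Of the 8 members 4 were measured. Cyp2d34 (ENSMUSG00000094559, chromosome 15, 82615965 to 82620946) was at 29.4, 1.84, 10.3 and 16.9 CPM in mutants 1 to 4, against 0.628, 0.461, 0.128 and 0.239 CPM in controls 1 to 4. The lowest mutant, mutant 2, lay above every control, and no control had more than 10 reads. Cyp2d34 was higher in mutants (log2 fold change 5.31, SE 0.90, adjusted p = 0.00655). Cyp2d26 (ENSMUSG00000022445, chromosome 15, 82790101 to 82794294) was at 30.0, 4.29, 7.98 and 10.2 CPM in mutants 1 to 4, against 1.63, 0.856, 1.53 and 1.32 CPM in controls 1 to 4. Again mutant 2 was the lowest mutant, the groups did not overlap, and the gene was higher (log2 fold change 3.29, SE 0.62, adjusted p = 0.00973). Both calls held in all 20 alternatives tried. Without mutant 1, the highest library for both, the log2 fold changes were 4.71 for Cyp2d34 and 2.49 for Cyp2d26.

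Cyp2d10 was at 7.08, 1.39, 5.73 and 4.29 CPM in mutants 1 to 4, against 2.64, 1.52, 1.21 and 2.03 CPM in controls 1 to 4. Mutants 1, 3 and 4 lay above every control and mutant 2 among them. The gene was not called (log2 fold change 1.32, SE 0.50, adjusted p = 0.0934), but it was higher without mutant 2 (log2 fold change 1.62, SE 0.30, adjusted p = 0.002), with DESeq2 and with limma-voom. It was also called with column totals, where 59.5% of all genes were called higher. Cyp2d22 was at 8.05, 19.6, 5.65 and 8.01 CPM in mutants 1 to 4, against 16.6, 14.0, 21.9 and 19.3 CPM in controls 1 to 4. Here mutants 1, 3 and 4 lay below every control and mutant 2 within their range. It was not called (log2 fold change -0.80, SE 0.38, adjusted p = 0.166), but was lower with limma-voom and without mutant 2 (log2 fold change -1.31, SE 0.20, adjusted p = 0.000513). With column totals Cyp2d22 was not called (log2 fold change -0.07, SE 0.38, adjusted p = 0.875). Of the 50-base windows of the transcripts, 35.8% of Cyp2d10, 9.49% of Cyp2d26, 7.55% of Cyp2d34 and 4.13% of Cyp2d22 occurred in another gene. The split of reads between these genes is therefore uncertain.

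**Figure D3:**
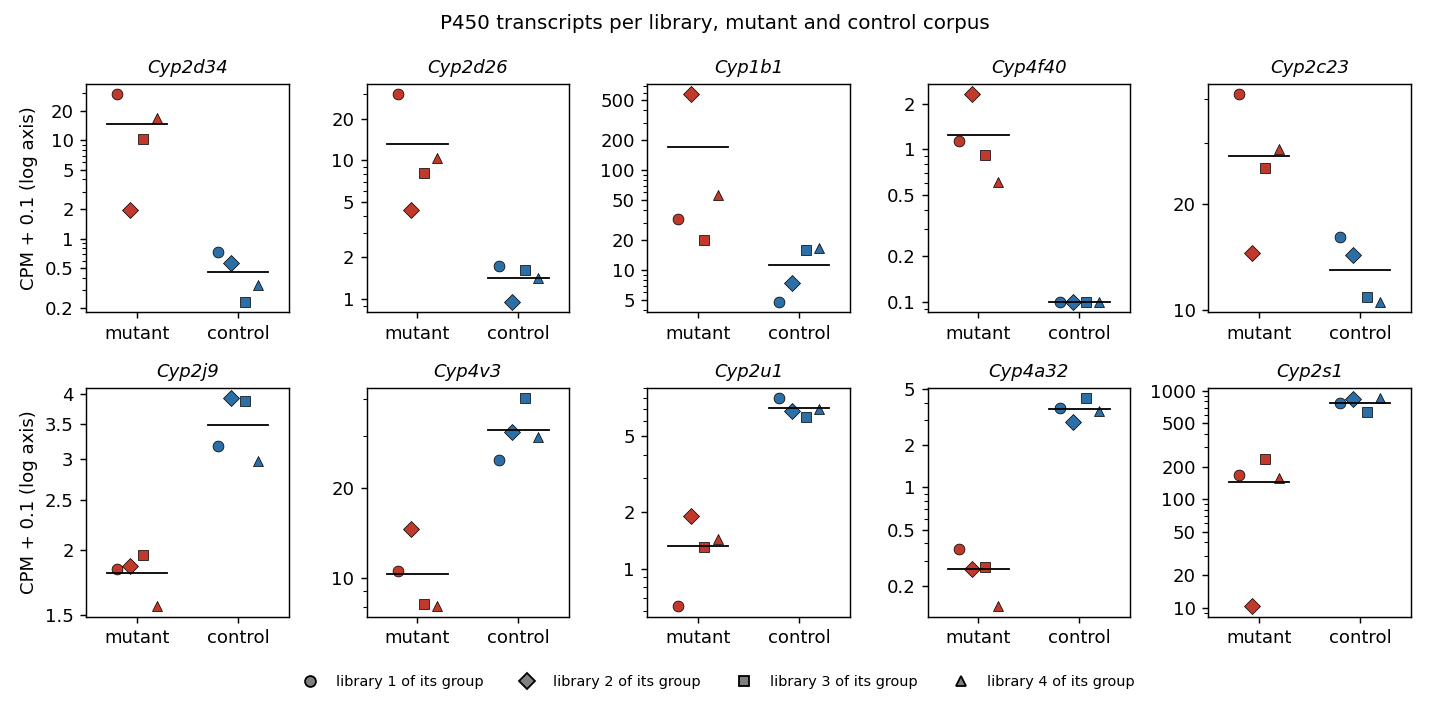
CPM + 0.1 on a log axis in each of the 4 mutant (red) and 4 control (blue) libraries for the 9 called P450 genes and for Cyp2s1, the most abundant one in controls; symbols give the library number and black lines the group means. Mutant 2 is the highest mutant for Cyp1b1, Cyp4f40, Cyp4v3 and Cyp2u1 and the lowest for Cyp2d34, Cyp2d26, Cyp2c23 and Cyp2s1, and the groups overlap in Cyp2c23 alone of the 10 genes.

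The Cyp2c genes of chromosome 19, several of which make epoxides and other oxygenated products of arachidonic acid, had 5 of 15 members measured. Cyp2c23, an epoxygenase gene (ENSMUSG00000025197, chromosome 19, 44005022 to 44029208), was at 41.3, 14.4, 25.2 and 28.7 CPM in mutants 1 to 4, against 16.0, 14.2, 10.8 and 10.4 CPM in controls 1 to 4. Mutants 1, 3 and 4 lay above every control, and mutant 2 lay below control 1. Cyp2c23 was higher with all libraries (log2 fold change 1.09, SE 0.31, adjusted p = 0.0406) and without mutant 2 (log2 fold change 1.31, SE 0.20, adjusted p = 0.000677). It lost its call when any 1 of the other 7 libraries was left out (adjusted p between 0.058 and 0.107) and without both squamous libraries (log2 fold change 1.05, SE 0.40, adjusted p = 0.145).

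Cyp2c65, the most abundant member in 3 of the 4 mutants, was at 227, 16.1, 169 and 170.2 CPM in mutants 1 to 4, against 190.3, 244, 131 and 182 CPM in controls 1 to 4. Its groups overlapped, and it was not called with mutant 2 (log2 fold change -0.36, SE 0.63, adjusted p = 0.712) or without it (log2 fold change 0.01, SE 0.19, adjusted p = 0.963). Its neighbour Cyp2c66 was at 3.67, 0.0409, 3.45 and 2.57 CPM in mutants 1 to 4, against 1.63, 0.922, 1.66 and 1.79 CPM in controls 1 to 4. Mutants 1, 3 and 4 lay above every control and mutant 2 near 0. It was not called (log2 fold change 0.69, SE 0.86, adjusted p = 0.591), and of the 20 alternatives only the one without mutant 2 called it (log2 fold change 1.10, SE 0.31, adjusted p = 0.0177).

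Cyp2c55 was at 0.635, 0.0409, 0.474 and 0.557 CPM in mutants 1 to 4, against 0.942, 1.78, 1.66 and 2.03 CPM in controls 1 to 4. All 4 mutants lay below all 4 controls, and the gene was not called (log2 fold change -1.89, SE 0.61, adjusted p = 0.0608). It was lower without mutant 2 (log2 fold change -1.51, SE 0.40, adjusted p = 0.0126) and with DESeq2 or limma-voom. With column totals Cyp2c55 was not called (log2 fold change -1.20, SE 0.60, adjusted p = 0.104). Cyp2c68 had 49, 0, 78 and 68 reads in mutants 1 to 4, against 44, 16, 15 and 31 reads in controls 1 to 4. The groups overlapped, and it was not called (log2 fold change 0.25, SE 0.97, adjusted p = 0.873), with log2 fold changes of 0.66 without mutant 2 and -0.32 without both squamous libraries. Shared windows made up 20.6% of Cyp2c65, 19.5% of Cyp2c66 and 43.3% of Cyp2c68, and 0% of Cyp2c23.

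Of the other family 2 genes, Cyp2s1 (ENSMUSG00000040703, chromosome 7, 25802475 to 25816913) was at 168, 10.2, 236 and 158 CPM in mutants 1 to 4, against 774, 839, 632 and 852 CPM in controls 1 to 4. All 4 mutants lay far below all 4 controls, and mutant 2 far below the other mutants. The gene missed the threshold by little (log2 fold change -2.44, SE 0.74, adjusted p = 0.0502). It was lower without mutant 2 (log2 fold change -2.05, SE 0.18, adjusted p = 2.3e-05), with DESeq2 (log2 fold change -2.43, adjusted p = 0.00225) and with limma-voom (log2 fold change -2.15, adjusted p = 0.000679). With column totals Cyp2s1 was not called (log2 fold change -1.76, SE 0.71, adjusted p = 0.0561). Nor was it called without both squamous libraries (log2 fold change -2.87, SE 0.93, adjusted p = 0.105). The same held when any 1 library other than mutant 2 was left out (adjusted p between 0.0541 and 0.106). The sums of the parietal and chief cell markers were lower in every mutant than in every control too and lowest in mutant 2. So was that of the 4 surface pit cell markers, at 4277 to 33275 CPM in mutants and 39296 to 63921 CPM in controls. The 5 smooth muscle markers summed to 229 to 747 CPM in mutants and 2598 to 3557 CPM in controls. The part of these cell types in the result was not tested.

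Cyp2u1, which hydroxylates long-chain fatty acids (ENSMUSG00000027983, chromosome 3, 131288441 to 131303227), was at 0.534, 1.80, 1.21 and 1.33 CPM in mutants 1 to 4, against 7.85, 6.72, 6.26 and 6.88 CPM in controls 1 to 4. The groups did not overlap, and mutant 1 was the lowest library. Cyp2u1 was lower in mutants (log2 fold change -2.51, SE 0.36, adjusted p = 0.00353), a call that held in all 20 alternatives. Over 10.5% of their length its exons overlap those of 4930534D22Rik on the opposite strand, and reads of the pair may be mixed.

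Cyp2j9, of the epoxygenase subfamily 2J (ENSMUSG00000015224, chromosome 4, 96568429 to 96591578), was at 1.74, 1.76, 1.85 and 1.46 CPM in mutants 1 to 4, against 3.08, 3.82, 3.77 and 2.87 CPM in controls 1 to 4. The mutants lay within a narrow band below every control, and the gene was lower in mutants (log2 fold change -0.99, SE 0.23, adjusted p = 0.0206). The call was lost without mutant 4 (adjusted p = 0.063), control 2 (adjusted p = 0.0617) or control 3 (adjusted p = 0.0661), and without both squamous libraries (log2 fold change -0.98, SE 0.31, adjusted p = 0.0974). It was lost with column totals as well (log2 fold change -0.28, SE 0.24, adjusted p = 0.308). Its neighbour Cyp2j6 was at 94.1, 28.5, 88.0 and 75.9 CPM in mutants 1 to 4, against 148, 158, 117 and 147 CPM in controls 1 to 4. No mutant reached the lowest control, and the gene was not called (log2 fold change -0.99, SE 0.33, adjusted p = 0.0686). It was lower without mutant 2 (log2 fold change -0.73, SE 0.13, adjusted p = 0.00132) and with DESeq2 or limma-voom. With column totals Cyp2j6 was not called (log2 fold change -0.31, SE 0.33, adjusted p = 0.425).

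Cyp2b10, a target of the xenobiotic receptor CAR, was at 2.84, 0.164, 2.63 and 1.07 CPM in mutants 1 to 4, against 2.70, 5.01, 2.62 and 2.21 CPM in controls 1 to 4. The groups overlapped (log2 fold change -0.90, SE 0.71, adjusted p = 0.392). Cyp2r1, the vitamin D 25-hydroxylase of the endoplasmic reticulum, was not called (log2 fold change -0.19, SE 0.43, adjusted p = 0.778). Neither was Cyp2t4 (log2 fold change 0.25, SE 0.50, adjusted p = 0.75), which had the lowest summed count among the measured members. Cyp2f2, the naphthalene-oxidising enzyme of lung airway cells, had 2, 7, 551 and 2 reads in mutants 1 to 4, against 1, 0, 51 and 1 reads in controls 1 to 4. Both libraries high in it were those with squamous transcripts. Cyp2f2 did not pass the filter and was not called without the filter (log2 fold change 2.85, adjusted p = 0.468).

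In family 3, Cyp3a13 was the sole measured member of 7. It belongs to the subfamily that in the human handles the widest range of drugs. Cyp3a13 was at 66.3, 10.3, 65.3 and 70.5 CPM in mutants 1 to 4, against 43.7, 44.9, 65.9 and 59.2 CPM in controls 1 to 4. Mutants 1, 3 and 4 lay near or above the highest control and mutant 2 far below the lowest. The gene was not called with mutant 2 (log2 fold change -0.01, SE 0.50, adjusted p = 0.992) or without it (log2 fold change 0.33, SE 0.15, adjusted p = 0.102).

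In family 4, the fatty acid hydroxylases, 10 of 17 members were measured. Cyp4a32 (ENSMUSG00000063929, chromosome 4, 115600969 to 115621602) had 8, 4, 4 and 1 reads in mutants 1 to 4, against 57, 43, 66 and 57 reads in controls 1 to 4. The highest mutant stayed far below the lowest control, and the level was 0.162 ± 0.0920 CPM in mutants and 3.51 ± 0.568 CPM in controls (SD, n = 4 each). Of the 35 tested members it had the largest fall (log2 fold change -4.36, SE 0.46, adjusted p = 0.00132), and the call held in all 20 alternatives. As 43.8% of its windows also occurred in Cyp4a10 or Cyp4a31, which did not reach 100 reads each, the assignment of its reads is uncertain. Cyp4v3 (ENSMUSG00000079057, chromosome 8, 45304944 to 45333216) is the mouse counterpart of human CYP4V2, an enzyme of fatty acid handling in the eye. It was at 10.5, 14.5, 8.06 and 7.93 CPM in mutants 1 to 4, against 24.8, 30.8, 40.1 and 29.7 CPM in controls 1 to 4. The groups did not overlap, and Cyp4v3 was lower in mutants (log2 fold change -1.61, SE 0.24, adjusted p = 0.00378). The call held in all 20 alternatives, with a log2 fold change of -0.89 under column totals.

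Cyp4b1, known from lung, was at 0.468, 8.38, 1.51 and 0.643 CPM in mutants 1 to 4, against 3.33, 4.94, 5.23 and 4.55 CPM in controls 1 to 4. Mutant 2 was the highest of all 8 libraries and the other mutants lay below every control. The gene was not called (log2 fold change -0.71, SE 0.85, adjusted p = 0.577). It was lower with limma-voom (log2 fold change -2.41, adjusted p = 0.00132) and without mutant 2 (log2 fold change -2.38, SE 0.41, adjusted p = 0.00111). With column totals Cyp4b1 was not called (log2 fold change 0.02, SE 0.85, adjusted p = 0.984).

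The Cyp4f genes include enzymes that inactivate leukotriene B4. Of their 9 members 7 were measured, 6 of them on chromosome 17. Cyp4f40 (ENSMUSG00000090700, chromosome 17, 32659410 to 32676687) had 31, 54, 19 and 12 reads in mutants 1 to 4, against 0, 0, 0 and 0 reads in controls 1 to 4. It was called higher (edgeR, adjusted p = 0.0114). Its mutant mean of 1.14 CPM was at least 6.05-fold higher than 0.189 CPM, the mean level that 3 reads in each control library would give, and at least 4.18-fold higher without mutant 2. Cyp4f13 was at 27.5, 11.3, 30.3 and 20.5 CPM in mutants 1 to 4, against 40.6, 38.5, 43.5 and 40.4 CPM in controls 1 to 4. Every mutant lay below every control, and the gene was not called (log2 fold change -0.86, SE 0.27, adjusted p = 0.0575). It was lower without mutant 2 (log2 fold change -0.64, SE 0.14, adjusted p = 0.00438), without mutant 3 (adjusted p = 0.0384), and with DESeq2 or limma-voom. With column totals Cyp4f13 was not called (log2 fold change -0.17, SE 0.26, adjusted p = 0.575). Cyp4f16 was at 27.0, 29.5, 30.5 and 29.8 CPM in mutants 1 to 4, against 25.1, 26.7, 21.3 and 23.3 CPM in controls 1 to 4. Every mutant lay above every control, by little, and the gene was not called (log2 fold change 0.28, SE 0.11, adjusted p = 0.0952) except with limma-voom and with column totals. In the latter fit 59.5% of all genes were called higher.

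Cyp4f18, which in the mouse inactivates leukotriene B4 in neutrophils, was at 1.34, 23.5, 4.44 and 5.01 CPM in mutants 1 to 4, against 2.51, 8.70, 4.98 and 5.44 CPM in controls 1 to 4. Mutant 2 was far above the other 7 libraries, whose groups overlapped, and the gene was not called (log2 fold change 0.66, SE 0.80, adjusted p = 0.582). Without mutant 2 its log2 fold change turned to -0.59 (SE 0.50, adjusted p = 0.394). Neither Cyp4f17 (log2 fold change -0.10, SE 0.26, adjusted p = 0.811) nor Cyp4f15 (log2 fold change -0.28, SE 0.60, adjusted p = 0.763) was called, and without mutant 2 Cyp4f15 was at a log2 fold change of 0.07. Cyp4f39, the counterpart of a human skin barrier gene, had 10, 0, 108 and 24 reads in mutants 1 to 4, against 41, 8, 29 and 46 reads in controls 1 to 4. It was highest in mutant 3, a library with squamous transcripts, and was not called (log2 fold change -0.37, SE 1.15, adjusted p = 0.842). Its log2 fold change was -2.08 without mutant 3 and -2.11 without both squamous libraries (SE 1.19, adjusted p = 0.284), and 0.04 without mutant 2.

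Among genes of bile acid and oxysterol metabolism, Cyp39a1, an oxysterol 7-alpha-hydroxylase, was at 16.9, 10.3, 13.4 and 10.9 CPM in mutants 1 to 4, against 18.3, 18.8, 21.8 and 18.1 CPM in controls 1 to 4. All 4 mutants lay below all 4 controls, and the gene missed the threshold (log2 fold change -0.58, SE 0.18, adjusted p = 0.0523). It was lower without mutant 2 (log2 fold change -0.49, SE 0.16, adjusted p = 0.038), without mutant 1 (adjusted p = 0.0225), and with DESeq2 or limma-voom, and its log2 fold change under column totals was 0.12. Cyp7b1, the other oxysterol 7-alpha-hydroxylase measured, was at 1.07, 5.77, 0.949 and 1.54 CPM in mutants 1 to 4, against 4.21, 3.62, 4.72 and 3.05 CPM in controls 1 to 4. Mutant 2 exceeded every control and the other mutants lay below them. Cyp7b1 was not called (log2 fold change -0.74, SE 0.59, adjusted p = 0.395), but was lower without mutant 2 (log2 fold change -1.71, SE 0.30, adjusted p = 0.00138) and with limma-voom. With column totals it was not called (log2 fold change -0.01, SE 0.59, adjusted p = 0.992).

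Cyp27a1, the mitochondrial sterol 27-hydroxylase, was at 10.4, 12.3, 6.21 and 4.54 CPM in mutants 1 to 4, against 9.48, 8.17, 11.2 and 10.1 CPM in controls 1 to 4. The groups overlapped (log2 fold change -0.21, SE 0.32, adjusted p = 0.656). Cyp46a1, the cholesterol 24-hydroxylase of neurons, had 28, 109, 10 and 23 reads in mutants 1 to 4, against 15, 21, 32 and 17 reads in controls 1 to 4. Mutant 2 was far above the other 7 libraries, and the gene was not called (log2 fold change 0.34, SE 0.70, adjusted p = 0.76). Without mutant 2 its log2 fold change turned to -0.77 (SE 0.44, adjusted p = 0.204). Cyp7a1, the rate-limiting enzyme of bile acid synthesis, counts among the genes not measured.

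Of the steroid and vitamin D genes, Cyp27b1, which activates vitamin D, was at 1.60, 0.409, 2.59 and 1.11 CPM in mutants 1 to 4, against 2.07, 2.77, 3.00 and 2.21 CPM in controls 1 to 4. The groups overlapped, and it was not called (log2 fold change -0.81, SE 0.50, adjusted p = 0.269). Cyp11a1, the side-chain cleavage enzyme that starts steroid synthesis, had 34, 77, 38 and 29 reads in mutants 1 to 4, against 17, 36, 12 and 8 reads in controls 1 to 4. It was highest in mutant 2 and was not called with it (log2 fold change 0.61, SE 0.55, adjusted p = 0.452) or without it (log2 fold change 0.20, SE 0.49, adjusted p = 0.793). Cyp21a1, the steroid 21-hydroxylase, had 3, 71, 17 and 21 reads in mutants 1 to 4, against 0, 0, 0 and 0 reads in controls 1 to 4. Most of its reads came from mutant 2. It did not pass the filter, was called higher by DESeq2 (adjusted p = 0.000138), without the filter (adjusted p = 0.036) and without mutant 1 (adjusted p = 0.027), and was not called without any 1 control (adjusted p between 0.0838 and 0.0936). Its mutant mean of 1.16 CPM was at least 6.13-fold higher than the 0.189 CPM of 3 reads per control library. Without mutant 2 the mean of 0.578 CPM was at least 3.06-fold higher, and mutant 1, with 3 reads, was itself at that floor. Of its windows, 21.3% occurred in the pseudogene Cyp21a2-ps. Of 4 adrenal cortex markers Star was at 4.54, 12.6, 3.97 and 3.94 CPM in mutants 1 to 4, against 5.55 to 7.05 CPM in controls. The other 3, Hsd3b1, Mc2r and Akr1b7, were at or near 0 in all libraries. Cyp20a1, whose substrate is not known, was at 28.1, 23.1, 26.9 and 29.2 CPM in mutants 1 to 4, against 19.8, 19.9, 19.9 and 24.8 CPM in controls 1 to 4. Mutants 1, 3 and 4 lay above every control, and the gene was not called (log2 fold change 0.35, SE 0.12, adjusted p = 0.0809). It was higher without mutant 2 (log2 fold change 0.41, SE 0.12, adjusted p = 0.0204) and with limma-voom. It was also called with column totals, where 59.5% of all genes were called higher.

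The minimum of 100 summed reads separated Cyp2t4 with 107 and Cyp21a1 with 112 reads from Cyp2a5 with 96 and Cyp4x1 with 94 reads. Cyp2a5 had 85 of its reads in mutant 3. Cyp4x1 had 40, 6, 24 and 13 reads in mutants 1 to 4, against 2, 3, 2 and 4 reads in controls 1 to 4. Cyp2e1, the ethanol-inducible enzyme, had 0, 0, 0 and 0 reads in mutants 1 to 4, against 27, 29, 20 and 4 reads in controls 1 to 4. Cyp1a1 and Cyp2e1 were chosen after their values were seen and had no test.

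Genes that work with P450 enzymes were taken from lists by function, and 44 of 50 listed genes in the table passed the filter. Of these 1 was higher and 7 were lower, or 18.2% called, against 20.2% of all genes, with a median log2 fold change of -0.11. Without mutant 2, 6 were higher and 11 lower, or 38.6% called, against 33.5% of all genes. Among the redox partners, 0 of 10 tested genes were higher and 2 were lower, with a median log2 fold change of -0.175. The share called in this list was near the 20.2% of all genes. The 2 genes called were the pair that feeds electrons to mitochondrial P450 enzymes. Fdxr, ferredoxin reductase, was at 13.3, 11.2, 12.4 and 9.34 CPM in mutants 1 to 4, against 19.4, 21.6, 23.4 and 17.6 CPM in controls 1 to 4. Fdx1, the ferredoxin, was at 23.6, 13.2, 19.7 and 21.7 CPM in mutants 1 to 4, against 39.7, 44.1, 32.6 and 33.9 CPM in controls 1 to 4. In both, every mutant lay below every control, and both Fdxr (log2 fold change -0.82, SE 0.16, adjusted p = 0.00962) and Fdx1 (log2 fold change -0.94, SE 0.19, adjusted p = 0.013) were lower in mutants. Without both squamous libraries the log2 fold changes were as large, -0.79 for Fdxr (adjusted p = 0.0587) and -1.01 for Fdx1 (adjusted p = 0.0577), but neither was called. With column totals they were -0.12 for Fdxr and -0.25 for Fdx1, and neither was called. Por, the reductase that serves P450 enzymes of the endoplasmic reticulum, was chosen after its values were seen. It was at 186, 122, 186 and 213 CPM in mutants 1 to 4, against 160.0, 192, 175 and 168 CPM in controls 1 to 4, with overlapping groups (log2 fold change 0.03, SE 0.17, adjusted p = 0.921).

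**Figure D4:**
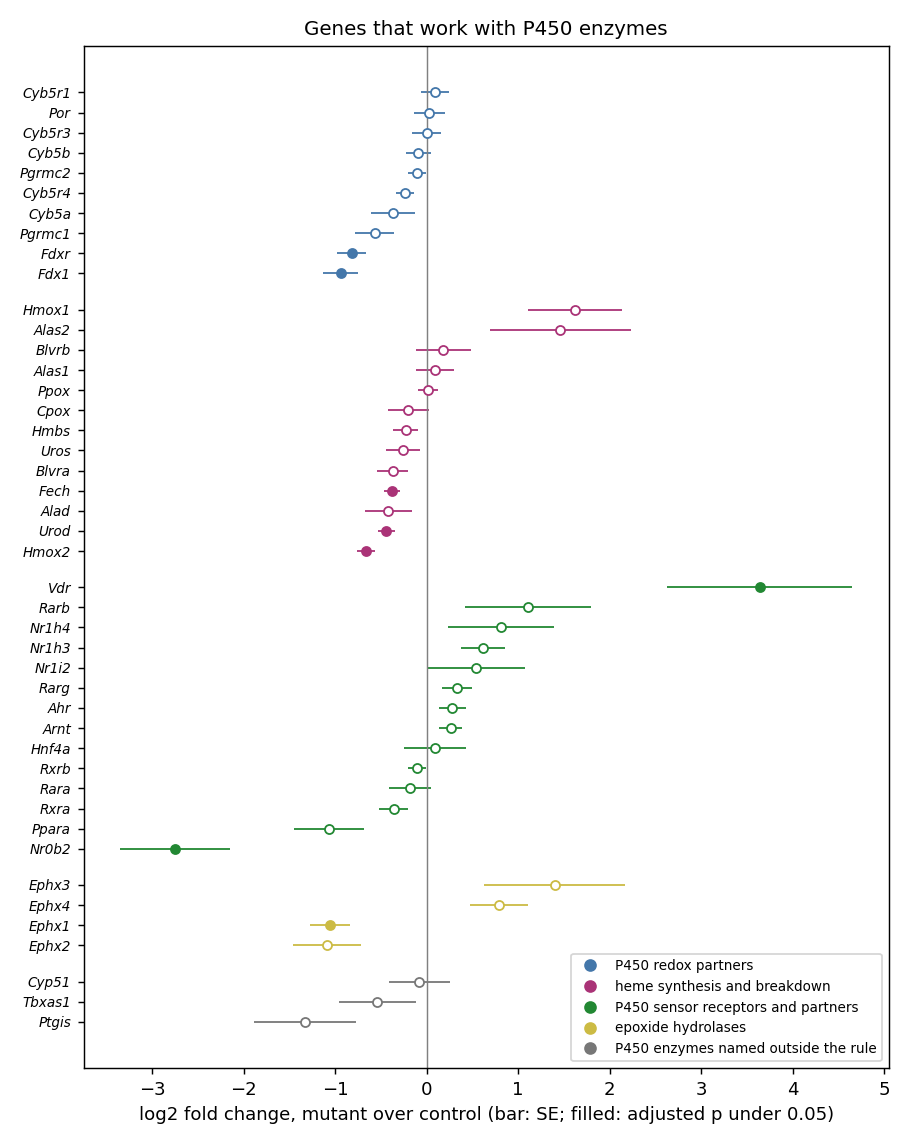
Log2 fold changes, mutant over control, with their SE as bars, of the 44 tested genes that work with P450 enzymes, by list; filled points passed an adjusted p under 0.05. The 7 genes called lower lie in 4 lists, and Vdr at 3.64 is the 1 gene called higher; with column totals as library sizes the fold changes of Fech, Urod and Hmox2 are above 0.

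In the list of heme synthesis and breakdown, 0 of 13 tested genes were higher and 3 were lower, by small amounts, with a median of -0.227. That is 23.1% called, near the 20.2% of all genes. Hmox2, the constitutive heme oxygenase, was at 26.1 ± 2.48 CPM in mutants and 41.1 ± 1.51 CPM in controls (log2 fold change -0.66, SE 0.10, adjusted p = 0.00409). Urod, uroporphyrinogen decarboxylase, was at 29.1 ± 0.643 CPM in mutants and 39.5 ± 4.03 CPM in controls (log2 fold change -0.44, SE 0.10, adjusted p = 0.0173). Fech, the enzyme that inserts the iron, was at 47.0 ± 2.48 CPM in mutants and 61.1 ± 2.86 CPM in controls (log2 fold change -0.38, SE 0.08, adjusted p = 0.0176; SD, n = 4 for each of these means). In all 3 genes every mutant lay below every control. Hmox1, the inducible heme oxygenase, chosen after its values were seen, had the largest fold of the list and was at 17.2, 69.3, 14.5 and 21.6 CPM in mutants 1 to 4, against 7.66, 12.8, 10.02 and 9.21 CPM in controls 1 to 4. Every mutant lay above every control, mutant 2 far above the rest, and it was not called (log2 fold change 1.62, SE 0.51, adjusted p = 0.0556) but was higher without mutant 2 (log2 fold change 0.84, SE 0.20, adjusted p = 0.00722). With column totals the log2 fold changes of the 3 lower genes were 0.05 for Hmox2, 0.26 for Urod and 0.32 for Fech, and Fech was then called higher (adjusted p = 0.0231). Urod and Fech also lost their calls without mutant 4 (adjusted p = 0.0518 and 0.0594), without control 3 (adjusted p = 0.0555 and 0.0624) and when mutant 3 and control 3 were both left out (adjusted p = 0.0979 and 0.0978).

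Of 14 tested sensor receptors and their partners, 1 was higher and 1 lower, or 14.3% called, against 20.2% of all genes, with a median of 0.268. Vdr, the vitamin D receptor, was at 3.57, 40.9, 3.19 and 4.71 CPM in mutants 1 to 4, against 1.76, 0.659, 0.447 and 1.32 CPM in controls 1 to 4. The mutants lay above every control and mutant 2 far above the rest. Vdr was higher with all libraries (log2 fold change 3.64, SE 1.01, adjusted p = 0.0383) and without mutant 2 (log2 fold change 1.86, SE 0.41, adjusted p = 0.00527). The call was lost without mutant 4 or any 1 control (adjusted p between 0.0519 and 0.104) and without both squamous libraries (log2 fold change 3.70, SE 1.10, adjusted p = 0.0885). Nr0b2, a repressor that damps bile acid synthesis in the liver, was at 2.27, 0.327, 4.10 and 2.27 CPM in mutants 1 to 4, against 18.8, 11.3, 16.5 and 13.6 CPM in controls 1 to 4. The groups did not overlap, and Nr0b2 was lower in mutants (log2 fold change -2.75, SE 0.60, adjusted p = 0.0171). Its adjusted p was 0.0507 without mutant 4 and 0.053 without control 1.

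Of the 4 epoxide hydrolases, which open the epoxides that P450 enzymes make, 0 were higher and 1 was lower, or 25.0% called, against 20.2% of all genes, with a median of -0.136. Ephx1, the microsomal enzyme, was at 46.0, 20.5, 34.2 and 27.8 CPM in mutants 1 to 4, against 67.8, 66.7, 70.2 and 63.8 CPM in controls 1 to 4. Every mutant lay below every control, and Ephx1 was lower in mutants (log2 fold change -1.06, SE 0.22, adjusted p = 0.0143). The call was lost without both squamous libraries (log2 fold change -1.07, SE 0.30, adjusted p = 0.0758) and with column totals (log2 fold change -0.37, SE 0.21, adjusted p = 0.156). Of 3 P450 enzymes whose symbols fall outside the naming pattern, edgeR called 0, and Ptgis alone had an unadjusted p under 0.05. They were Cyp51 of cholesterol synthesis, Tbxas1, thromboxane synthase, and Ptgis, prostacyclin synthase. Without mutant 2, Tbxas1 (log2 fold change -1.14, SE 0.23, adjusted p = 0.00277) and Ptgis (log2 fold change -2.27, SE 0.23, adjusted p = 5.52e-05) were lower.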

How the data were processed

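Per the labels' protocols, PolyA libraries of the corpus were prepared with NEBNext Ultra reagents. The authors deposited read counts and FPKM per Ensembl gene. The submitters' processing notes list CASAVA, fastp, STAR 2.5 and featureCounts but give no roles. Genome build and strand setting were not stated; 33 of the 37 measured members had the coordinates of GENCODE M21 (GRCm38). The column headed SCI was read as control 1. A further gene of the naming pattern is not reported here.

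Counts were filtered by filterByExpr, scaled by TMM and fitted over the whole table with a robust quasi-likelihood model in edgeR 4.0.16 (R 4.3.3), with limma 3.58.1 and DESeq2 1.42.0 as alternatives. Adjusted p-values (Benjamini-Hochberg, called under 0.05) are edgeR's unless another tool is named. The SE is the coefficient without prior count over the square root of F. CPM are counts over TMM library sizes. The fit was tested on simulated data. Members and lists were chosen with earlier results of these data known. Named were all called members, the 5 uncalled members with the highest FPKM and with the largest fold changes, those without overlap, and called genes of each list, at most 4. Libraries of a group differed by more than sampling noise (chi-square per degree of freedom at least 15.4). Counting error alone limits 3 reads, on average 0.120 CPM in mutants and 0.189 CPM in controls. Fits on log2(FPKM + 1) and log2(FPKM + 0.1) understate changes of low genes.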

Additional observations from a re-analysis of the deposited data

Results flagged for a closer look

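In groups of 4 libraries, a value was marked where its gap to the nearest other library exceeded the critical share of the range (Dixon); chance marks about 1 group in 20. Of 72 groups of members with reads, 9 were marked, 6 of them through mutant 2. Mutant 2 was far above the other mutants in Cyp1b1 at 579 CPM (others 19.96 to 56.4), Cyp4f18 at 23.5 CPM (1.34 to 5.01), Cyp4b1 at 8.38 CPM (0.468 to 1.51), Cyp7b1 at 5.77 CPM (0.949 to 1.54) and Cyp46a1 at 4.46 CPM (0.431 to 0.986). In Cyp3a13 mutant 2 was far below them, at 10.3 CPM (65.3 to 70.5). Cyp2f2 was far above the other libraries of its group in mutant 3, at 23.8 CPM (0.0668 to 0.286), and in control 3, at 3.26 CPM (0 to 0.0628), the libraries with squamous transcripts. Cyp20a1 was higher in control 4, at 24.8 CPM, than in the other controls (19.8 to 19.9).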

How the results depend on the processing

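Of 885 values of named genes under 20 alternatives, 769 kept their call or lack of one (sign changes of uncalled values not counted), 71 lost the call, 42 gained it and 3 called values reversed: with column totals as library sizes, Hmox2, Urod and Fech turned to 0.05, 0.26 and 0.32. The 5 members called higher became 8 with limma-voom, 8 with column totals, 3 without both squamous libraries, 2 at a threshold of 0.01, 2 with log2(FPKM + 1), 2 with log2(FPKM + 0.1), and 3 with log2(FPKM + 1) and no filter. The 4 called lower became 9 with DESeq2, 12 with limma-voom and 7 with log2(FPKM + 1). Calls over all genes moved too, from 20.2% to 24.8% by DESeq2, 35.9% by limma-voom and 64.1% with column totals. They were 18% with log2(FPKM + 1), 18.8% with log2(FPKM + 0.1) and 7.75% with log2(FPKM + 1) and no filter. In edgeR they were 8.9% without the low-count filter, 8.81% without both squamous libraries, 6.6% at 0.01 and 11.5% under the replicate block. The partner gene called higher became 5 with limma-voom, 22 with column totals, and 0 without the low-count filter, without both squamous libraries, at a threshold of 0.01 and in all 3 FPKM fits. The 7 partner genes called lower became 12 with limma-voom, 1 with column totals, 2 without both squamous libraries and 2 at a threshold of 0.01. Leaving out 1 library gave 3 to 7 members higher, 3 to 12 lower, 0 to 6 partner genes higher and 4 to 11 lower, with the upper ends without mutant 2; 10.5% to 33.5% of all genes were called in these fits. With the replicate number as a block, 2 members were higher and 3 lower, and 0 partner genes were higher and 4 lower. Same-numbered libraries deviated from their group means with correlations of -0.0618 to 0.0688 over all genes tested. Such correlations cannot decide whether same-numbered animals shared a litter or day, and mutant 3 and control 3 shared squamous transcripts. The cause of the shifts between fits was not tested. Members under about 100 summed reads, and Cyp4f40 and Cyp21a1 with no control reads, are limited by depth.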
